A study of Mus musculus with 10 samples.

Results

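The kinesin genes were taken as the protein-coding genes whose mouse symbol is Kif or Kifc followed by a digit, which gave 43 of the 35501 genes in the summed tables. Of these, 42 encode kinesins and 1, Kif1bp, encodes a protein that binds kinesins and is no motor itself. A further 3 Kif-named pseudogenes were left out. The series holds 10 libraries, each from 1 metaphase II oocyte of an ICR mouse aged 6 to 8 weeks, 5 from control oocytes and 5 from oocytes kept with TubA at 0.1 µg/mL for 16 h. All were taken from ovaries at the germinal vesicle stage and matured in culture. The labels do not spell out the agent's name, which commonly stands for tubastatin A, a compound that blocks HDAC6, the enzyme that takes acetyl groups off tubulin. The labels do not say how many mice gave the oocytes, or whether oocytes of the 2 groups came from the same mice, so p-values measure the spread between these libraries.

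Kinesins are motors that use ATP to move along microtubules or to take their ends apart. In a dividing cell they build the bipolar spindle, carry and align chromosomes, and form the midzone at which the cell is cut, and in a resting cell they carry vesicles, mitochondria and RNA. A metaphase II oocyte holds a finished spindle and has just expelled its first polar body. It transcribes little, so its RNA is largely a store laid down during growth.

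Values are in TPM, which counts transcripts relative to the library's total after dividing by transcript length, summed over the annotated transcripts of a gene, and each library sums to 1000000 TPM over all transcripts listed. TPM keeps no read depth, so the depth behind a value is unknown and the error given is the spread between libraries. In these single cells, fewer transcripts in the cell and less RNA captured cannot be told apart. The oocyte markers summed to between 30860 and 45969 TPM in control and between 32101 and 48436 TPM in TubA libraries, which fits the label. Those of cumulus and granulosa cells (14 genes, 2 of them at 0 throughout) summed to between 17.6 and 39.5 TPM in control and between 21.5 and 35.7 TPM with TubA. Those of blood, immune and endothelial cells (8 genes) summed to between 27.2 and 75.6 and between 39.7 and 79.4 TPM. The libraries fall into 2 sets by their correlation over all genes tested, a split the labels do not give. Set A holds control replicates 1 to 3 and TubA replicates 1 and 2, and set B the other 5 libraries. Control replicate 3 and TubA replicate 1 stand out among the 10. One or the other was the highest library for 33.5% of the 11664 genes whose mean reached 1 TPM, which are the genes tested. The values below are set beside these sets and libraries where they touch a result.

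What makes a kinesin is its motor domain, and within it the loop that holds the phosphates of ATP. The coding stretch of 36 bases around that loop is shown for motors of the midzone, chromosomes, transport and spindle, to let the family's shared core be seen in the genes whose levels follow. It is read from the longest annotated coding sequence (GENCODE M21, GRCm38), 5′ to 3′ on the coding strand, and capitals mark the 24 bases of the loop itself.
Kif23: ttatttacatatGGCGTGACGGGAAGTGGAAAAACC
Kif20b: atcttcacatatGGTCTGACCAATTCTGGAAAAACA
Kif2c: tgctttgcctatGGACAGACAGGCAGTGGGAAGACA
Kif4: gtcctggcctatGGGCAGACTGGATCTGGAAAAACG
Kif14: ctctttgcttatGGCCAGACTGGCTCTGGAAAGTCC
Kif5c: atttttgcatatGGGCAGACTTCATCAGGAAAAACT
Kifc1: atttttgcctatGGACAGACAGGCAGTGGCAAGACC
These stretches lie in coding exons at chr9:61937178-61937213 (minus strand) for Kif23, chr19:34929774-34929809 (plus) for Kif20b, chr4:117167297-117167332 (minus) for Kif2c and chrX:100633853-100633888 (plus) for Kif4. Those of the others lie at chr1:136471534-136471569 (plus) for Kif14, chr2:49680191-49680226 (plus) for Kif5c and chr17:33883384-33883419 (minus) for Kifc1.

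The loop pattern (glycine, any residue, a small residue, any pair of residues, glycine, a basic residue, and threonine or serine) occurred once in 41 of the 43 coding sequences and in neither Kif1bp nor Kif26a. Its place in the coding sequence largely followed the known classes of the family. In 34 members it lay within the first 30% of the coding length, as in Kif5c at codon 86 of 956 and Kif4 at codon 88 of 1231. In Kif2a, Kif2b and Kif2c, whose motor sits in the middle of the protein and which take microtubule ends apart, it lay at 42.0%, 45.4% and 47.7%. Kif24, grouped with them in the kinesin-13 class, had it at 22.7% and is among the 34. In the minus-end motors Kifc1, Kifc5b, Kifc2 and Kifc3, whose motor lies towards the end, it lay between 60.9% and 63.8%. Kif14, with its long stretch before the motor, had it at 28.8%, at codon 482 of 1674.

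**Figure D1:**
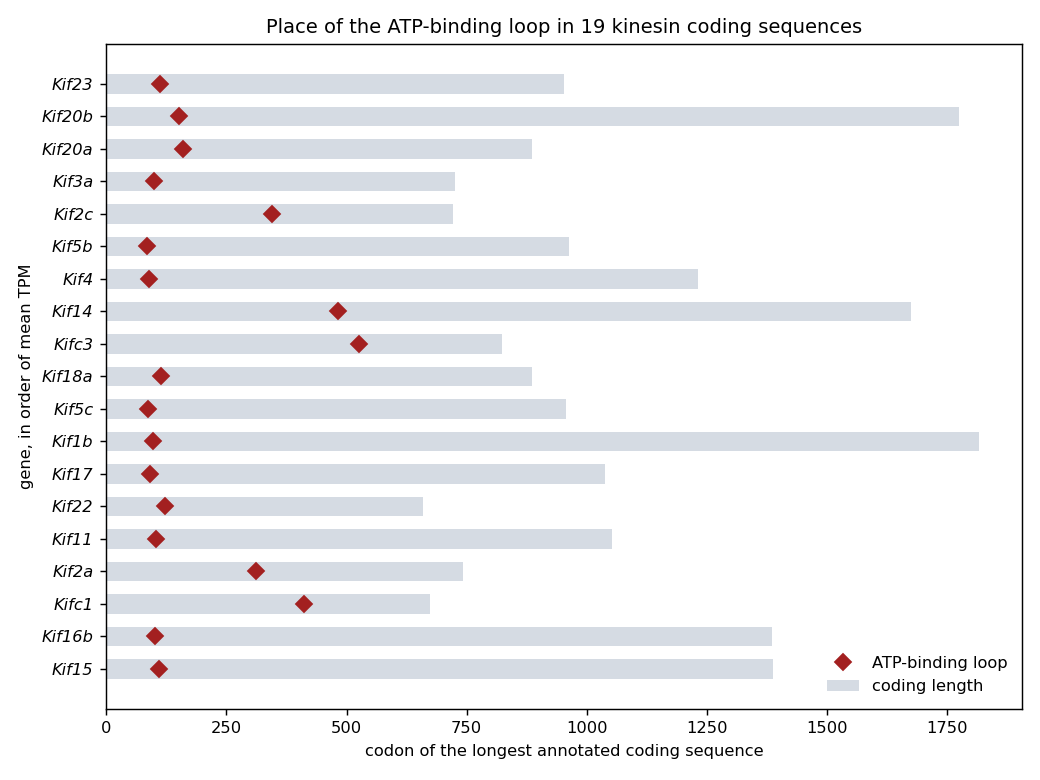
Coding length in codons (grey bar) and the codon at which the ATP-binding loop starts (diamond) for the 19 members at a mean of 10 TPM or more, in order of mean TPM. Most diamonds sit near the left end, while those of Kif2c and Kif2a sit near the middle and those of Kifc3 and Kifc1 past it.

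The oocytes carried RNA of most kinesins, and the levels spanned a wide range. Of the 43 members, 26 were at or above 1 TPM in all 10 libraries, 10 were below 1 TPM in all, and Kif2b, whose relatives Kif2a and Kif2c were present, was listed at 0 in every library. Members at a mean of 100 TPM or more numbered 7, which is 16.3% of the family, against 7.13% of the 22278 genes above 0 in at least 1 library. Members below a mean of 1 TPM made up 27.9% of the family, against 47.6% of those genes. Those genes are of every annotated type, pseudogenes included, while the members are protein-coding by rule and include Kif2b at 0. The shares therefore compare unlike sets. All members together came to 2411 ± 340.2 TPM in control oocytes and 2436 ± 277 TPM in treated ones, a difference far smaller than the spread (mean ± SD over 5 libraries a group, and so wherever a pair of means is given, control before TubA).

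The midzone kinesins led. Kif23 (chr9:61915905-61946774), the motor of the centralspindlin complex that bundles midzone microtubules and anchors the cleavage furrow, had the highest level of the family. Its control libraries stood at 463, 492, 775, 521 and 599.8 TPM and its TubA libraries at 496, 635, 503, 469.5 and 612 TPM, in the order of replicates 1 to 5. Control replicate 3 was the highest and the groups overlapped. Kif23 ranked between 174 and 334 among all genes, depending on the library. It lay above Kif20b in 10 of 10 libraries without overlap, its lowest value being 463 TPM and the highest of Kif20b 427 TPM. This was the one pair of neighbours among the leading members whose ranges did not overlap.

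Kif20b, a plus-end motor of late cytokinesis, stood at 324, 295, 322, 297 and 278 TPM in control and at 427, 324, 274, 256 and 339.7 TPM with TubA. Its control libraries lay close together and its TubA libraries ran wider, with TubA replicate 1 the highest. Kif20a, which brings the chromosomal passenger complex to the midzone, stood at 237, 206, 325, 263 and 294 TPM in control and at 333, 253, 224, 281 and 344 TPM with TubA. Both groups covered much the same range. These 3 genes, the kinesin-6 class, made up 47.5% of the kinesin TPM on average, and between 43.6% and 50.9% in single libraries. Their share was 47.4 ± 2.84% in control and 47.6 ± 2.60% with TubA.

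Among the motors of chromosomes and kinetochores, Kif2c (also called MCAK), which takes apart wrongly attached microtubule ends at kinetochores, led by level. Its libraries stood at 111, 183, 234, 222 and 167 TPM in control and at 223, 187, 138, 268 and 213 TPM with TubA. Its values spread over more than 2-fold within control, and the groups overlapped. Kif4, a chromokinesin that acts on chromosome arms and the midzone, stood at 75.9, 88.6, 132, 94.5 and 96.8 TPM in control and at 174, 98.2, 77.4, 111 and 118 TPM with TubA. TubA replicate 1 was again the highest and TubA replicate 3 lay among the low control libraries. Kif22, the other chromokinesin of chromosome arms, stood at 36.05 ± 11.2 and 40.8 ± 12.4 TPM. Kif18a, which damps chromosome movement at the metaphase plate, stood at 69.8 ± 21.6 and 85.6 ± 25.9 TPM.

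The motors that set up the bipolar spindle were much lower. Kif11, the plus-end motor that pushes spindle poles apart, stood at 20.3, 19.4, 34.0, 15.7 and 18.0 TPM in control and at 32.5, 24.3, 14.3, 17.0 and 22.4 TPM with TubA. The highest values were those of control replicate 3 and TubA replicate 1. Kif15, which can share that task, stood at 9.57 ± 3.55 and 11.1 ± 6.16 TPM. Kifc1, the minus-end motor that bundles spindle microtubules, stood at 15.8, 32.9, 14.4, 8.26 and 12.9 TPM in control and at 8.83, 10.3, 9.39, 10.3 and 7.92 TPM with TubA. Control replicate 2 stood at more than 2-fold any other library, and control replicate 4 lay inside the TubA range. Kif2a, which takes microtubules apart at spindle poles, stood at 15.6 ± 4.74 and 13.04 ± 2.51 TPM.

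Several transport motors were as abundant as the spindle motors. Kif3a, a subunit of the kinesin-2 motor of cilia and vesicles, stood at 271, 289.6, 162, 219 and 212 TPM in control and at 233, 219, 260.2, 199 and 202 TPM with TubA. Control held both the highest and the lowest library. Kif3b, its usual partner subunit, stood at 2.25 ± 0.757 and 2.34 ± 0.515 TPM, far below Kif3a on this scale, which is per transcript length. Kif5b and Kif5c, heavy chains of conventional kinesin (kinesin-1), are described further on. Kif5a, their neuronal relative, had a mean of 0.124 TPM. Kif1b, a carrier of mitochondria and synaptic vesicle precursors, stood at 54.0 ± 14.3 and 62.2 ± 17.3 TPM. Kifc3, a minus-end motor of epithelial junctions and the Golgi, stood at 73.9, 47.8, 206, 46.9 and 52.4 TPM in control and at 96.6, 115, 69.9, 60.5 and 76.9 TPM with TubA. Control replicate 3 stood apart and the rest of both groups overlapped.

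The members left out of the test, at a mean under 1 TPM, were Kif9, Kif6, Kif1c, Kif3c, Kifc2, Kif5a, Kif28, Kif19a, Kif26a, Kif12, Kif7 and Kif2b. They include motors known from cilia, such as Kif9, Kif6, Kif7 and Kif19a, and from neurons, such as Kif5a and Kif3c. Other motors of these kinds, such as Kif3a and Kif1b described above, stood well above that mean. The members just above that limit were Kif26b at 1.05 and Kif1a at 1.47 TPM, and those just below were Kif9 at 0.983 and Kif6 at 0.587 TPM. The remaining tested members, Kif17, Kif16b, Kif1bp, Kif24, Kif13a, Kif3b, Kif13b, Kif27, Kif21b, Kif1a and Kif26b, ranged in mean from 50.02 TPM (Kif17) to 1.05 TPM (Kif26b).

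**Figure D2:**
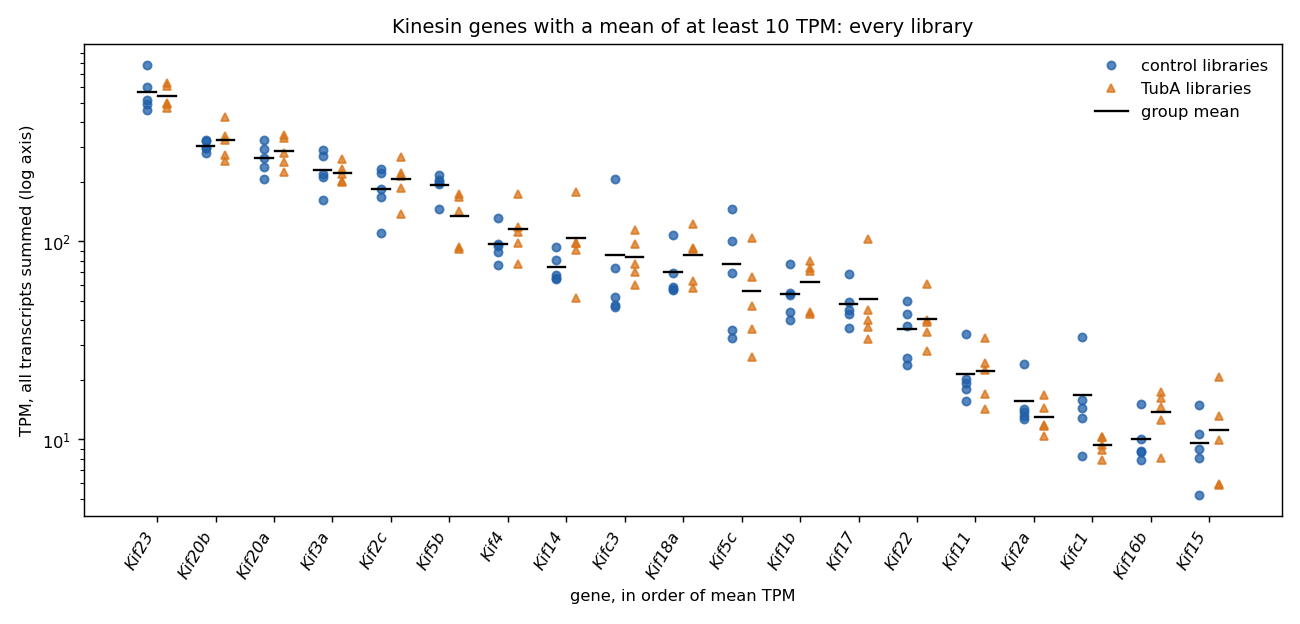
TPM of all transcripts of a gene (log axis) in each control library (circles) and TubA library (triangles) for the 19 members at a mean of 10 TPM or more, with the group means as bars. Kif23 stands above the rest, neighbours overlap from Kif20b down, and the circles and triangles of each gene overlap.

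The order of levels rests in part on values listed for transcripts that do not encode the motor. How reads were divided among overlapping transcripts is not stated, and values down to 3.18e-11 TPM occur, so the shares below are the deposited estimates, and whether the short transcripts named were present in these cells was not tested. In 8 of the 31 members tested (25.8%), over 50% of the gene's TPM came from transcripts annotated as other than protein-coding, against 16.8% of 10891 protein-coding genes whose mean also reached 1 TPM. In Kif23, 57.4% of the TPM came from a processed transcript of 392 bases, Kif23-212, whose bases all lie within exons of the coding transcript. The coding transcript Kif23-201 (3398 bases) stood at 136 ± 38.0 and 120.5 ± 19.2 TPM. Weighted by length, which is nearer to the share of sequenced bases, Kif23-212 came to 19.4% and Kif23-201 to 67.4% of the gene.

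In Kif3a, 70.8% of the TPM came from Kif3a-206, a transcript of 770 bases annotated for nonsense-mediated decay, and its share was between 66.9% and 75.2% in every library. Kif14, a motor of cytokinesis, was carried mainly by Kif14-202, a retained-intron transcript of 4102 bases with 78.7% of the TPM. Its share by length was 78.8%. The coding transcripts of Kif14 together stood at 8.25 ± 1.32 and 7.82 ± 3.17 TPM. Kif18a-203, a retained-intron transcript, gave 47.4% of the TPM of Kif18a, and its share ran from 25.2% to 70.3% over the libraries. Kif20b, Kif20a, Kif2c, Kif5b, Kif4, Kif22, Kif11 and Kif2a had between 0 and 3.90% of their TPM outside coding transcripts in any library.

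On protein-coding transcripts alone, Kif20b led at 313 TPM, followed by Kif20a at 276, Kif2c at 194, Kif5b at 163 and Kif23 at 135 TPM. Kif3a moved from place 4 to place 8 and Kif14 from place 8 to place 19. The family's sum was then 1625 ± 213 and 1633 ± 173 TPM. The coding label also covers short transcripts. Of the 313 TPM of Kif20b, 90.5 came from Kif20b-202 (740 bases) and 12.5 from Kif20b-208 (573 bases). Its long transcripts Kif20b-201 and Kif20b-203 stood at 108 and 102 TPM, so its lead over Kif20a rests on the short ones. Both listed transcripts of Kif20a are long (3146 and 3107 bases). In Kifc3 the long coding transcript Kifc3-201 (3277 bases) held 20.7% of the TPM. In control replicate 3 it stood at 34.6 TPM, its highest value. The short Kifc3-210 (721 bases) and Kifc3-206 (598 bases) stood there at 67.3 and 41.9 TPM, so much of that library's Kifc3 lay on short transcripts.

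**Figure D3:**
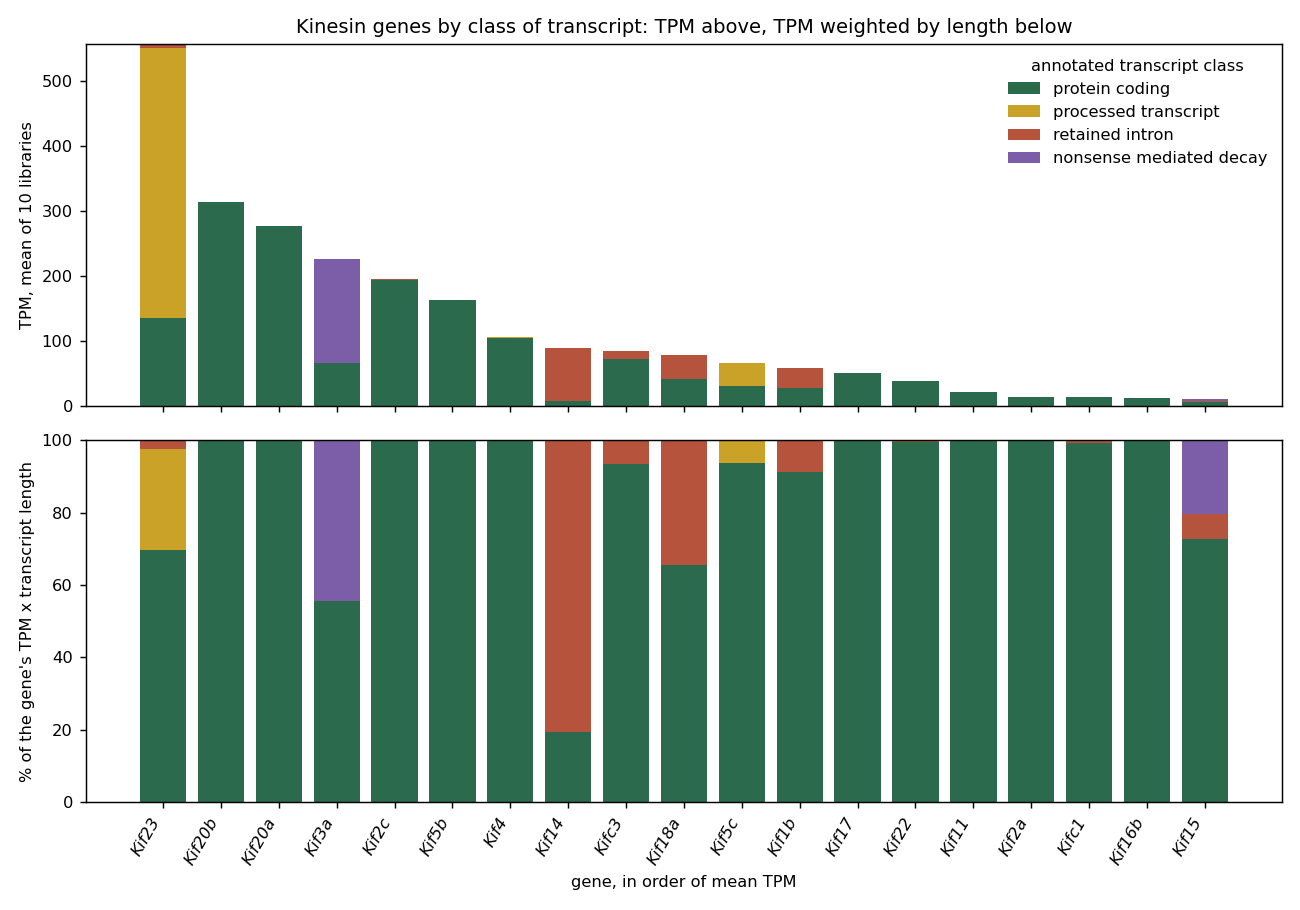
Mean TPM over 10 libraries by annotated transcript class (upper bars) and the same classes as a percentage of TPM times transcript length (lower bars), for the 19 members at a mean of 10 TPM or more. Non-coding classes make up most of the TPM of Kif23, Kif3a and Kif14, and slightly more of it than coding ones in Kif5c and Kif1b. By length they still make up most of Kif14 alone.

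Some levels depend on sequence shared with other genes. Of the 31-base words of Kifc1, 43.1% also occur in another listed gene, 39.1% in Kifc5b, a near copy on the same chromosome. The coding sequences were identical at 1984 of 2008 aligned bases (98.8%), and the 36 bases around the ATP-binding loop were the same in both. A stretch with several differences close together is shown, to let both be compared. It covers 60 coding bases, at chr17:33886828-33886887 (minus strand) in Kifc1 and chr17:26920808-26920867 (plus strand) in Kifc5b, and capitals mark the 4 places at which they differ.
Kifc1: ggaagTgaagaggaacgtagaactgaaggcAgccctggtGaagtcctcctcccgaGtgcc
Kifc5b: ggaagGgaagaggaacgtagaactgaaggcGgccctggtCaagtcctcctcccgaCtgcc
Kifc5b was listed at 2.85 ± 0.821 and 3.58 ± 0.904 TPM, so Kifc1 was the higher of the pair as listed, but how reads were divided between the copies is uncertain. Summed with Kifc5b and the pseudogene Kifc5c-ps, the level was 22.5 ± 11.2 and 16.4 ± 2.98 TPM. Kif20a shares 22.3% of its words with Cdc23. The strand of the reads is not stated, so its level is uncertain to that extent. Kif23, Kif20b, Kif2c, Kif5b and Kif3a each shared between 0 and 3.96% of their words.

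How far levels differed between oocytes depended on abundance. The coefficient of variation over all 10 libraries had a median of 17.6% among the 7 members at 100 TPM or more, against 23.7% for all genes there. Among the 12 members between 10 and 100 TPM it was 35.3%, against 34.0%. No test was made of these medians. Of the 31 members tested, 15 (48.4%) had their highest value in control replicate 3 (6 members) or TubA replicate 1 (9 members), against 33.5% of all genes tested.

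Kif5c, a heavy chain of conventional kinesin, was one of 3 members whose library sets did not overlap. Its control libraries, replicates 1 to 5, stood at 68.9, 101, 146, 35.9 and 32.5 TPM, and its TubA libraries at 104, 66.5, 36.3, 26.2 and 47.2 TPM. Every library of set A, at 66.5 TPM or more, lay above every library of set B, at 47.2 TPM or less. The same was true of Kif13a, at 7.57 to 9.69 and 3.05 to 5.53 TPM, and the reverse of Kif26b, at 0 to 0.400 and 0.661 to 3.46 TPM. These are 3 of the 31 members tested, and 5.14% of all genes tested had sets that did not overlap. The sets were drawn from the values of these same genes, so some separation follows from how they were made. Kif26b was tested through its set B values alone, so its split is tied to that limit. The split in Kif5c was widest in the processed transcript Kif5c-206 (383 bases), at 35.9 to 83.7 TPM in set A and 3.59 to 21.04 TPM in set B. The coding transcript Kif5c-201 stood at 28.1 to 51.4 TPM in set A and at 17.5 to 28.9 TPM in set B, which overlap.

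TubA against control asks whether oocytes matured with the agent held other levels of kinesin RNA. None of the 31 members tested passed limma's test on log2(TPM + 1) at an adjusted p of 0.05 over all 11664 genes (smallest adjusted p = 0.9999), against 0.00857% of all genes, which is 1 gene, the pseudogene Rpl36-ps1. At an unadjusted p under 0.05 stood 1 member, Kif5b, against 2.51% of all genes. In no member did all TubA libraries lie on 1 side of all control libraries, against 0.454% of all genes. The log2 difference, TubA minus control, was above 0 in 19 members and below 0 in 12, with a median of 0.11 against 0.01 over all genes. That median was 0.03 on protein-coding transcripts alone, 0.23 within set A, 0.05 within set B, and between 0.05 and 0.18 when each library was left out. Kif1a and Kif26b, both above 0, reached the limit of the test through TubA libraries, so their direction was favoured by that limit. Kif1a reached it through TubA replicate 1 alone (10.1 TPM, the other 9 libraries below 1). Of those 10.1 TPM, 0.238 lay on protein-coding transcripts. Kif26b had means of 0.577 and 1.53 TPM.

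How closely the groups could be compared is given by the intervals. In 21 of 31 members (67.7%) the 95% interval of the difference stayed within 2-fold, up or down, on the log2(TPM + 1) scale, against 57.0% of all genes, and the median standard error was 0.28 against 0.33. For Kif23 the difference was -0.06 with an interval from -0.43 to 0.32, and for Kif20b it was 0.07 (-0.28 to 0.43). For Kif20a it was 0.11 (-0.28 to 0.51) and for Kif3a -0.03 (-0.42 to 0.36). The differences of Kif2c (0.18, -0.34 to 0.69), Kif4 (0.22, -0.28 to 0.72), Kif22 (0.18, -0.40 to 0.77) and Kif2a (-0.22, -0.75 to 0.31) also had intervals inside a 2-fold change. A 2-fold change in these motors lies outside the intervals.

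The intervals of Kif11 (-0.57 to 0.64), Kif18a (-0.27 to 0.83) and Kif14 (-0.22 to 0.98) also stayed within 2-fold. Those of Kifc3 (-0.62 to 1.01) and Kifc1 (-1.34 to 0.03) reached past a 2-fold change, as did that of Kif18b, a motor that shortens astral microtubules (-1.64 to 0.24). Kif14 changed sign with the transcripts counted, at 0.38 over all transcripts and -0.16 over protein-coding transcripts alone.

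**Figure D4:**
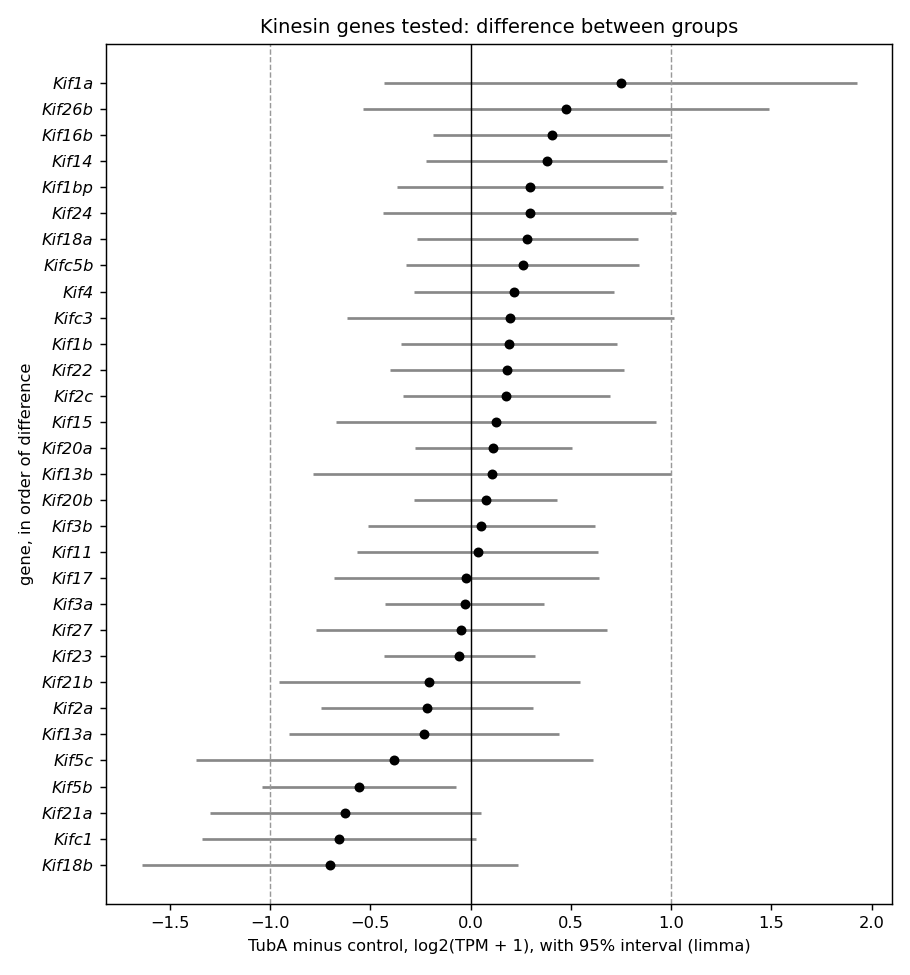
Log2 difference, TubA minus control, of log2(TPM + 1) with its 95% interval from limma for the 31 members tested, in order of difference. Dashed lines mark a 2-fold change, and the interval of Kif5b alone does not reach 0.

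Kif5b (ENSMUSG00000006740), the widely expressed heavy chain of conventional kinesin, which carries mitochondria, vesicles and RNA, had the smallest p. Its control libraries stood at 216, 194, 204, 145 and 201 TPM and its TubA libraries at 93.7, 91.4, 168, 143 and 174 TPM. TubA replicates 1 and 2 were the lowest of all libraries, while the other TubA libraries lay within or near the control range, so the groups overlapped. The means were 192 ± 27.4 and 134 ± 39.7 TPM, a log2 difference of -0.56 (SE 0.22, interval -1.04 to -0.07, limma unadjusted p = 0.028, adjusted p = 0.9999). It did not pass over all genes, and 1 of 31 members at that unadjusted p is near the 2.51% found over all genes.

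Both low libraries of Kif5b belong to set A and are its only TubA libraries. Within set A the log2 difference was -1.14 (limma unadjusted p = 0.0026, adjusted p = 0.4313). Within set B it was -0.08 (limma unadjusted p = 0.74). With the set as a term it was -0.61 (limma unadjusted p = 0.016). The difference between the sets' effects had a limma unadjusted p = 0.0073 and an adjusted p = 0.9516. The sets were drawn from the values of the genes tested, Kif5b among them, and Kif5b was singled out for its smallest p. The p-values that use the sets are therefore not independent of those choices, and no conclusion is drawn from them. Without TubA replicate 1 the log2 difference was -0.44 (limma unadjusted p = 0.072) and without TubA replicate 2 it was -0.43 (limma unadjusted p = 0.077). Without control replicate 1 it was -0.51 (limma unadjusted p = 0.059) and without control replicate 5 -0.54 (limma unadjusted p = 0.053). Both annotated coding transcripts had the lower mean with TubA. The shorter Kif5b-202 (2006 bases) stood at 152 ± 29.3 and 103 ± 25.3 TPM, and the full-length Kif5b-201 (6032 bases) at 39.9 ± 9.89 and 29.8 ± 17.1 TPM.

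Kif5c, the other abundant heavy chain, had a log2 difference of -0.38 (interval -1.37 to 0.61, limma unadjusted p = 0.42). With the library set as a term it was -0.11 (limma unadjusted p = 0.68). Within set A it was -0.27 (limma unadjusted p = 0.52) and within set B 0.06 (limma unadjusted p = 0.86). The difference between the sets' effects had a limma unadjusted p = 0.55. Without control replicate 3 it was -0.09 and without TubA replicate 4 it was -0.15. The 3 kinesin-1 genes together held 11.2 ± 1.98% of the kinesin TPM in control and 7.92 ± 1.36% with TubA, a share that moves with Kif5b and Kif5c and was not tested.

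The next smallest p-values belonged to Kifc1, Kif21a and Kif18b, and none passed 0.05 unadjusted. Kifc1 had a log2 difference of -0.66 (SE 0.31, limma unadjusted p = 0.059), which was -0.34 once Kifc5b and Kifc5c-ps were added. Without control replicate 2 that of Kifc1 alone was -0.39 (limma unadjusted p = 0.16). Kif21a, a motor that slows microtubule growth at the cell edge, stood at 6.39 ± 2.30 and 3.78 ± 1.24 TPM, with limma giving -0.63 (unadjusted p = 0.067). Kif18b had a mean of 5.04 TPM in control (1.24 to 12.2) and 2.23 TPM with TubA (1.24 to 3.59), with limma giving -0.70 (unadjusted p = 0.13), and its highest library was control replicate 3, without which the difference was -0.35 (limma unadjusted p = 0.34).

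**Figure D5:**
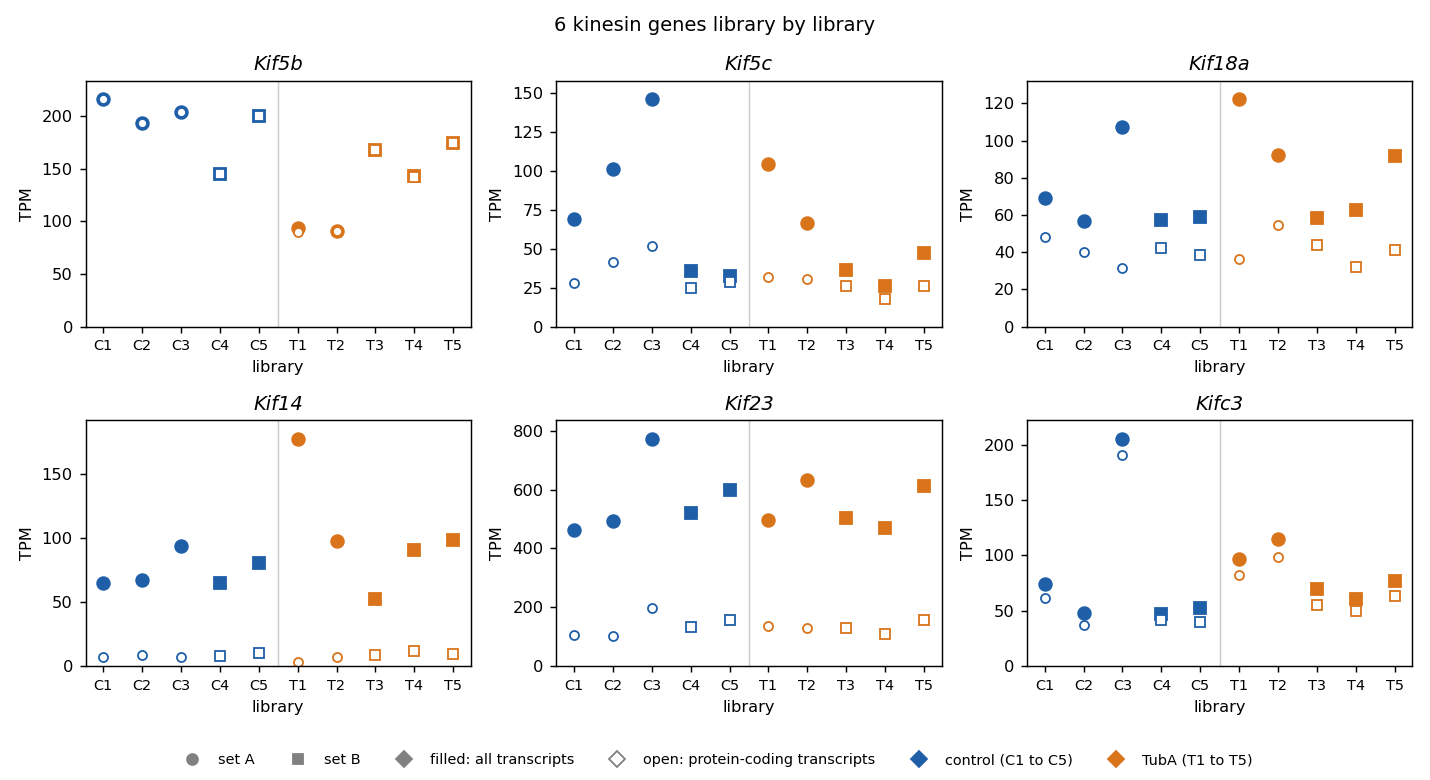
TPM of 6 kinesin genes in each library (C1 to C5 control, T1 to T5 TubA; circles set A, squares set B; filled symbols all transcripts, open symbols protein-coding transcripts alone). TubA replicates 1 and 2 are the lowest for Kif5b, the filled circles of Kif5c lie above its filled squares, and the filled and open symbols of Kif14 and Kif23 lie far apart.

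The partners of the kinesins did not pass the test either. Over all genes tested the median log2 difference was 0.01, and 2.51% stood at an unadjusted p under 0.05 (limma). Of 16 tested genes of cargo adaptors, light chains and related partners, 0 were called and 10 had a difference above 0, with a median of 0.10. Among the most abundant was Cenpe, the kinetochore kinesin whose symbol lies outside the rule, at 171 ± 30.9 and 184 ± 15.4 TPM. The same list holds Kif1bp, already counted among the kinesin members tested, so it is not wholly separate from them. Of 25 tested genes of cytoplasmic dynein and dynactin, the minus-end motor and its activator, 0 were called and 1 was at an unadjusted p under 0.05 (limma), with a median of 0.16. That gene, Dynlt1b, a light chain outside the naming rule and chosen after its values were seen, stood at 20.7 ± 11.7 and 35.2 ± 7.99 TPM. Its most abundant members were the intermediate chain Dync1i2, at 161 ± 35.99 and 209 ± 39.5 TPM, and Ndel1, at 139.8 ± 57.3 and 136 ± 20.7 TPM. Of 29 tested spindle and midzone partners 0 were called, with a median of 0.07. Birc5, a subunit of the chromosomal passenger complex that Kif20a carries, stood at 1301 ± 515 and 1448 ± 427 TPM, and the centrosome scaffold Pcnt at 801 ± 117 and 901 ± 213 TPM. Of 17 tested genes of intraflagellar transport, the train that Kif3a pulls in cilia, and of the BBSome, a cargo adaptor of that train, 0 were called, with a median of 0.08. The most abundant were Bbs4, a BBSome subunit, at 539 ± 127 and 512 ± 176 TPM, and Ift43, of the train, at 124 ± 36.7 and 112.5 ± 30.6 TPM.

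Genes for mitotic motors are known for a promoter element with the letters TTTGAA, the cell cycle genes homology region, by which they are held down outside division. The RefSeq promoters (GRCm38.p6, from 250 bases before to 50 after the start) of 33 members, 37 promoters in all, were searched on both strands. TTTGAA occurred in 14 of them (37.8%), against 17.9% of all 32851 promoters. It was found in 10 of the 12 mitotic and meiotic members with a promoter, Kif18a and Kif2a being the exceptions, and in 4 of 21 other members. CCAAT, another element of such promoters, which can share a letter with it, occurred in 17 of the 37 (45.9%), against 37.4% of all. The promoter of Kif11 is shown as an example, with the match close before the start, and capitals mark the 6 bases, which read TTTGAA on the other strand.
Kif11: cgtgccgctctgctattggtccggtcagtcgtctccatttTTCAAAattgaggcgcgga
It lies at chr19:37376323-37376381 (plus strand), ending at the last base before the RefSeq start. A match is a match of letters only, and no relation between the letters and the levels was tested.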

How the data were processed

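Per the labels' protocols, single oocytes were amplified with Smart-seq2 and sequenced on an Illumina HiSeq 2000. Bowtie 0.12.2 and the build mm10 are named in the submitters' processing notes. For the abundance program and read strand, nothing is given in the sources used here. The deposited values are TPM per Ensembl transcript, and those of each library sum to 1000000, so depth is unknown and no counting interval is given. Transcripts were summed to genes by GENCODE M21 (113492 matched, 1778 did not, with 0.531% to 0.753% of TPM). Groups were compared by limma 3.58.1 in R 4.3.3, using log2(TPM + 1) of genes whose mean reached 1 TPM, with trend and robust moderation and Benjamini-Hochberg adjustment at 0.05, tested on simulated data. Fold differences understate the change of low genes. All 10 libraries entered without covariates. Genes named are the 12 most abundant members, the 4 of smallest p and a list of mitotic and meiotic motors, and of each partner list the 2 most abundant, except that some items are not reported here. The members and lists were chosen with earlier results of these data known. Alternatives were pseudocount, filter, scaling, weights, library set, replicate block, coding transcripts and each library left out. Software was Python 3.11.15, numpy 2.4.6, pandas 2.3.3 and matplotlib 3.10.9.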

Additional observations from a re-analysis of the deposited data

Results flagged for a closer look

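In 62 groups of 5 libraries examined, 7 held a library far from the other 4. The rule flags about 1 group in 20 where values are normally distributed, which TPM need not be. The share flagged over all genes is not given here, so whether 7 is many for these libraries is unknown. Control replicate 3 was the distant library in 3 of them. It had 206 TPM of Kifc3 (others 46.9 to 73.9), 107 TPM of Kif18a (56.7 to 69.2) and 34.0 TPM of Kif11 (15.7 to 20.3). Of its Kif18a value, 75.5 TPM came from the retained-intron transcript Kif18a-203. On protein-coding transcripts alone it had the lowest Kif18a value of all libraries, 31.7 TPM. The values flagged here and the differences below count all transcripts. TubA replicate 1 had 10.1 TPM of Kif1a (others 0.428 to 0.911) and 3.54 TPM of Kif21b (0.855 to 1.26), so both means rest on that library. Of that Kif1a value, 0.238 TPM lay on protein-coding transcripts. TubA replicate 4 had 103 TPM of Kif17 (others 32.3 to 45.1), and control replicate 5 had 23.99 TPM of Kif2a (12.8 to 14.3). Without control replicate 3 the log2 difference went from 0.20 to 0.58 for Kifc3 (limma unadjusted p from 0.61 to 0.028, adjusted p = 1.0 without it), from 0.28 to 0.45 for Kif18a (unadjusted p from 0.29 to 0.076) and from 0.03 to 0.21 for Kif11 (unadjusted p from 0.90 to 0.43).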

How the results depend on the processing

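No member passed the adjusted threshold under any alternative run. Over all genes, where 1 gene passed, 0 passed with a pseudocount of 10, a filter at 5 TPM, set B alone or coding transcripts only, and 12 with set A alone. The number of members at a limma unadjusted p under 0.05, 1 as reported, was 0 with median centring, library weights or set B alone, and 0 to 3 when each library was left out (3 without control replicate 3). The sum of members on coding transcripts was 1625 TPM in control and 1633 TPM with TubA. The log2 differences changed sign as follows. With library weights Kif23 was at 0.049 and Kif15 at -0.101. Within set B Kif3a was at 0.021, Kif5c at 0.056, Kif18b at 0.046, Kif15 at -0.236 and Kifc5b at -0.043. On coding transcripts Kif3a was at 0.002 and Kif14 at -0.156. With a library left out, Kif23 ran from -0.125 to 0.060, Kif20b from -0.030 to 0.154, Kif3a from -0.149 to 0.058, Kif11 from -0.112 to 0.208 and Kif15 from -0.119 to 0.294. The cause was not tested.

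With the replicate number as a block, 0 genes passed over all genes, and Kif5b stayed at -0.56 (limma unadjusted p = 0.045). Deviations of same-numbered libraries from their group means had correlations of 0.003, -0.005, -0.308, 0.476 and 0.258. Replicates 4 and 5 correlated best with their own number and the others did not. These values cannot decide whether the numbers mark pairs, as they also carry the split into sets A and B. Control replicate 3 lies in set A and TubA replicate 3 in set B.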
